A study of Mus musculus with 24 samples.

Results

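The genes described here are 10 genes of the oligodendrocyte precursor and of the Olig family, *Olig1*, *Olig2*, *Olig3*, *Sox10*, *Pdgfra*, *Cspg4*, *Gpr17*, *Lhfpl3*, *Ptprz1* and *Enpp6*. They were chosen by name, with earlier results of these data known. Each was read from the probe set annotated to that gene alone with the highest mean, which left exactly 1 probe set for each of the 10. In all, 23521 probe sets carry a single gene symbol and 22180 genes are so measured. The samples were medulloblastomas of C57BL/6 mice dissected at P15, 1 array per tumor. In 6 *G-Smo* tumors (*hGFAP-Cre/SmoM2*) Cre is active in neuroglial stem cells across the brain, and in 6 *M-Smo* tumors (*Math1-Cre/SmoM2*) it is active in the ATOH1+ progenitors of granule neurons. Both genotypes carry the oncogenic *SmoM2* allele, neither received treatment, and no tumor-free tissue was analysed here. The other tumors of the series, 6 *G-Smo* and 6 *M-Smo* harvested 2 h after 10 Gy of xRT, had values for 0 of the 10 genes.

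Oligodendrocyte precursors are dividing glial cells that migrate through the developing brain and mature, through a committed stage, into the cells that make myelin. The transcription factors OLIG2 and SOX10 set up the lineage, the PDGF receptor alpha carries its main growth signal, and the receptor GPR17 and the enzyme ENPP6 mark cells that are leaving the precursor state. OLIG2 is also made by stem-like cells of SHH-driven medulloblastoma that lack SOX10, so that the *Olig* genes have more than one possible source in a tumor and *Sox10* has a narrower one. The comparison therefore asked how the *Olig* genes and the precursor genes differed between the genotypes, and whether the *Olig* genes varied from tumor to tumor together with *Sox10*. In RNA from whole tumors, fewer cells of a type and less RNA per cell cannot be told apart.

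The values are log2 intensities, so that a difference of 1 is a 2-fold change, and all differences are *G-Smo* minus *M-Smo*. Levels were not compared between probe sets, because these differ in how brightly they report a transcript. The *G-Smo* arrays had medians of 6.39 to 6.42, and the *M-Smo* arrays had medians of 6.38 to 6.41. The labels name neither sex nor litter, and *Xist* exceeded the Y-linked genes in 5 of 6 *G-Smo* tumors and in 2 of 6 *M-Smo* tumors. The tumors resemble the granule neuron lineage, and its markers were read as a check. *Atoh1*, the transcription factor of granule neuron progenitors, averaged 12.14 ± 0.10 in *G-Smo* tumors and 11.95 ± 0.22 in *M-Smo* tumors (SD, n = 6 each), and 0 of 8 such markers passed limma's test, with 0 at an unadjusted p under 0.05 and 0 by the methods' test.

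None of the 10 genes passed limma's test after Benjamini-Hochberg adjustment over all 41345 probe sets, at which 2.56% of probe sets were called, and the methods' test called 0 of 10 as well. At an unadjusted p under 0.05 limma gave 6 of the 10, all lower in *G-Smo* tumors, where 18.9% of all probe sets reached that level and 8.65% did so with the lower value in *G-Smo* tumors. The methods' test gave 7 at that level, but its share over all probe sets is not given here, so that count has nothing to be set against. Of the 10 differences 9 were below 0, with a median of -0.22, against a median of 0.0035 over all probe sets, of which 49.0% were below 0. The genes with the smallest adjusted p were *Olig3* and *Olig2*, and *Olig2* was the gene whose groups did not overlap. Every *G-Smo* tumor was below every *M-Smo* tumor in 1.57% of all probe sets, a share that leaves out those separated in the other direction.

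**Figure D1:**
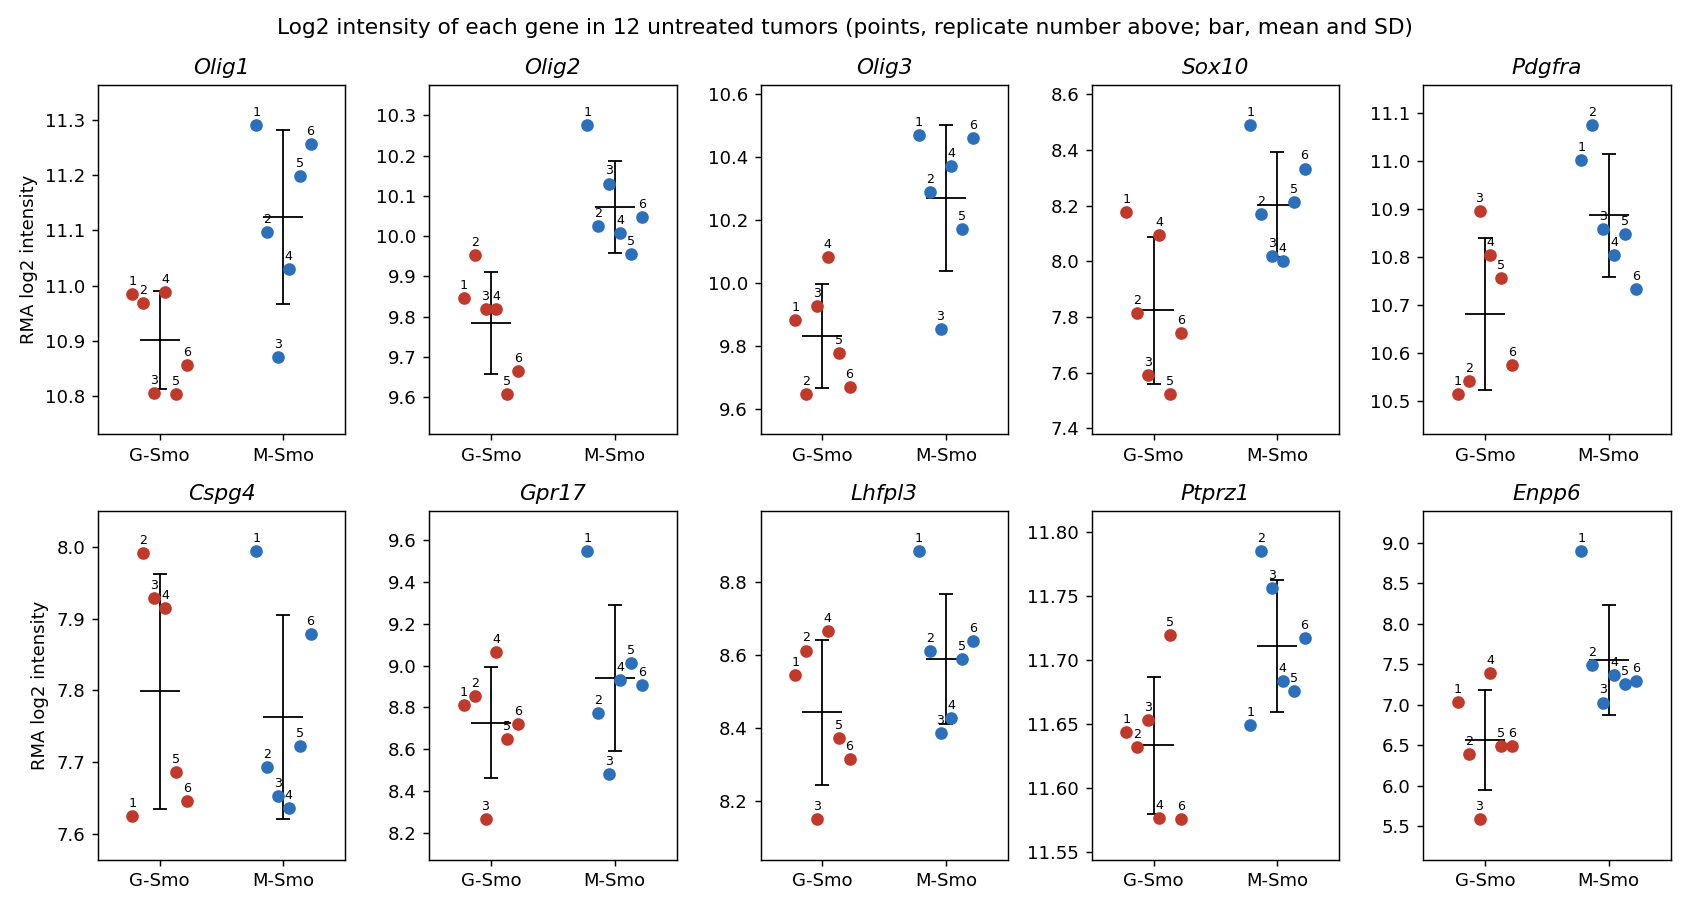
Log2 intensity (y axis) of each of the 10 genes in 6 *G-Smo* tumors (red, left) and 6 *M-Smo* tumors (blue, right), with the replicate number above each point and a bar for the mean and SD; each panel has its own scale, which does not start at 0. The *Olig2* values of the genotypes do not overlap, those of the other 9 genes do, and M-Smo tumor 1 stands above the others for *Enpp6*.

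*Olig2*, the basic helix-loop-helix factor that specifies the lineage, had a lowest, median and highest log2 intensity of 9.61, 9.82 and 9.9541 in *G-Smo* tumors, against 9.9545, 10.04 and 10.28 in *M-Smo* tumors. Every *G-Smo* tumor lay below every *M-Smo* tumor, but the highest *G-Smo* value and the lowest *M-Smo* value were almost equal. The means were 9.79 ± 0.13 in *G-Smo* tumors and 10.07 ± 0.11 in *M-Smo* tumors (SD, n = 6 each), and the difference was -0.29 ± 0.07 (SE), or 0.819-fold, with an adjusted p of 0.0591 by limma. Its adjusted p lay between 0.0298 and 0.125 under 22 other settings and passed in 3 of these: with dim probe sets removed, with only probe sets of 1 symbol, and with an intensity trend and robust variances in limma.

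*Olig1*, the neighboring family member, which acts in the maturation of oligodendrocytes, read 10.81, 10.91 and 10.99 in *G-Smo* tumors as lowest, median and highest, against 10.87, 11.15 and 11.29 in *M-Smo* tumors. The groups overlapped through M-Smo tumor 3, and the other 5 *M-Smo* tumors lay above every *G-Smo* tumor. The mean was 10.90 ± 0.09 in *G-Smo* tumors and 11.12 ± 0.16 in *M-Smo* tumors, a difference of -0.22 ± 0.08 (SE) with an adjusted p of 0.141 by limma.

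*Olig3*, which in the hindbrain marks dorsal progenitors including the rhombic lip and is not a marker of oligodendrocyte precursors, read 9.65, 9.83 and 10.08 in *G-Smo* tumors and 9.85, 10.33 and 10.47 in *M-Smo* tumors. Here too 5 of 6 *M-Smo* tumors exceeded every *G-Smo* tumor and M-Smo tumor 3 was the low one. The difference was -0.44 ± 0.11 (SE), or 0.738-fold, with an adjusted p of 0.0575 by limma. It passed the threshold under 8 of 22 other settings, among them the fits without M-Smo tumor 3 or without G-Smo tumor 4, and its adjusted p ranged from 0.0202 to 0.134.

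*Sox10*, the HMG-box factor that oligodendrocyte lineage cells keep at all stages, read 7.52, 7.78 and 8.18 in *G-Smo* tumors, against 8.00, 8.19 and 8.49 in *M-Smo* tumors. G-Smo tumors 1 and 4 reached into the *M-Smo* range and the other 4 lay below it. The difference was -0.38 ± 0.12 (SE), or 0.768-fold, with an adjusted p of 0.124 by limma.

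The growth factor receptor *Pdgfra*, which meningeal fibroblasts also make, read 10.52, 10.67 and 10.90 in *G-Smo* tumors and 10.73, 10.85 and 11.08 in *M-Smo* tumors, with 3 *G-Smo* tumors below the *M-Smo* range. Its difference was -0.21 ± 0.08 (SE), with an adjusted p of 0.207 by limma. *Cspg4* encodes the NG2 proteoglycan, which pericytes share with precursors. It read 7.62, 7.80 and 7.99 in *G-Smo* tumors and 7.64, 7.71 and 7.99 in *M-Smo* tumors, and the ranges were nearly the same. Its difference of 0.036 had a 95% interval from -0.15 to 0.23 and turned negative under 3 of 22 other settings. *Ptprz1*, a receptor phosphatase that precursors, astrocytes and radial glia express, averaged 11.63 ± 0.05 in *G-Smo* tumors and 11.71 ± 0.05 in *M-Smo* tumors, and its difference of -0.08 had a 95% interval from -0.18 to 0.03.

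*Enpp6*, a choline phosphodiesterase of newly forming oligodendrocytes, had the widest spread and the largest difference. It read 5.58, 6.49 and 7.39 in *G-Smo* tumors and 7.03, 7.33 and 8.90 in *M-Smo* tumors. The highest value belonged to M-Smo tumor 1, while the other 5 *M-Smo* tumors lay between 7.03 and 7.50, and G-Smo tumors 1 and 4 reached into that range. The mean was 6.56 ± 0.62 in *G-Smo* tumors and 7.56 ± 0.68 in *M-Smo* tumors (SD, n = 6 each). The difference was -0.99 ± 0.34 (SE), or 0.503-fold, with an adjusted p of 0.135 by limma, and it ranged from -1.16 to -0.72 when 1 tumor was left out.

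*Gpr17*, the receptor of committed precursors, read 8.27, 8.77 and 9.07 in *G-Smo* tumors and 8.48, 8.92 and 9.55 in *M-Smo* tumors, and *Lhfpl3*, a membrane protein gene used as a precursor marker, read 8.15, 8.46 and 8.66 in *G-Smo* tumors and 8.39, 8.60 and 8.89 in *M-Smo* tumors. Both genes overlapped over most of their range. The differences were -0.21 for *Gpr17* (95% interval -0.57 to 0.14, adjusted p = 0.521 by limma) and -0.15 for *Lhfpl3* (95% interval -0.37 to 0.08, adjusted p = 0.483 by limma).

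**Figure D2:**
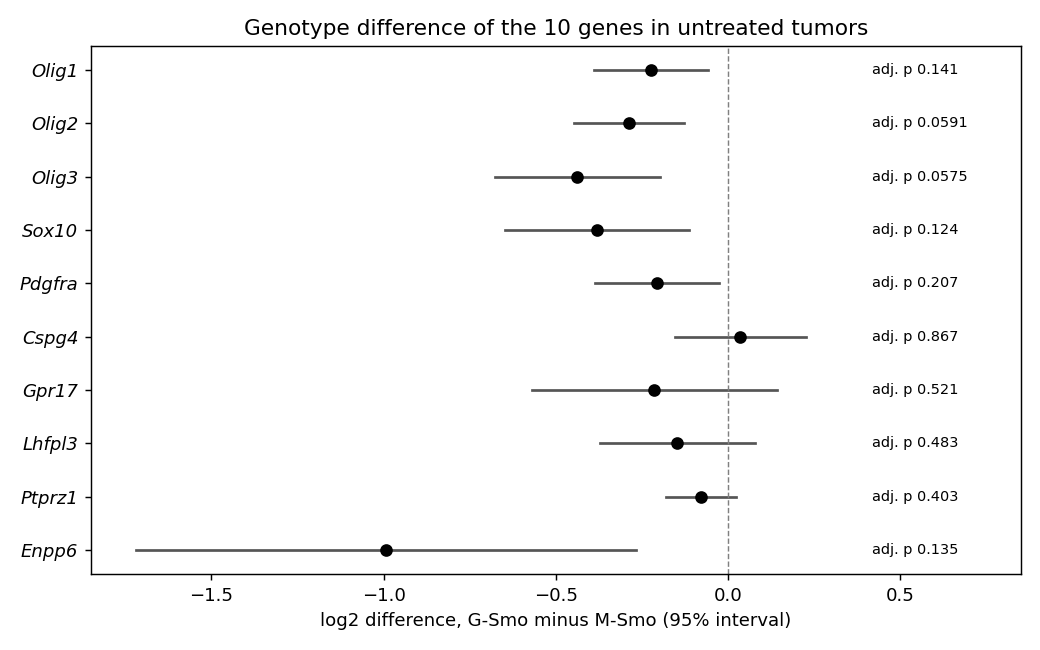
Log2 difference of the untreated tumors (x axis, *G-Smo* minus *M-Smo*) for each of the 10 genes, with points for the difference, lines for the 95% interval and limma's adjusted p on the right. The interval of 6 genes lies below 0, no adjusted p is under 0.05, and *Enpp6* has the largest difference, -0.99, and the widest interval.

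Whether the *Olig* genes followed *Sox10* between the genotypes was tested on the difference of log2 values within each tumor. The test takes equal changes in RNA to give equal log2 changes in both probe sets, which was not tested. *Olig1* minus *Sox10* was 3.08 ± 0.19 in *G-Smo* tumors and 2.92 ± 0.08 in *M-Smo* tumors (SD, n = 6 each). The genotypes differed by 0.16, with a 95% interval from -0.03 to 0.34 and an exact two-sided permutation p of 0.0866 (0.173 adjusted over both tests). *Olig2* minus *Sox10* was 1.96 ± 0.23 in *G-Smo* tumors and 1.87 ± 0.16 in *M-Smo* tumors, a difference of 0.09 with a 95% interval from -0.16 to 0.35 and an exact p of 0.418 (0.418 adjusted). The first difference passed an unadjusted exact p of 0.05 without G-Smo tumor 1 (0.21, exact permutation p = 0.0238) and without G-Smo tumor 4 (0.19, exact permutation p = 0.0476).

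Covariation across tumors was measured on deviations from the genotype mean, so that a difference between genotypes does not enter. All 45 pairs were computed over 12 tumors, with 100000 permutations within genotype and adjustment over the 45. Pearson's r passed for 9 pairs, all positive, and these lie among 5 genes, *Olig1*, *Sox10*, *Lhfpl3*, *Gpr17* and *Enpp6*. *Gpr17* and *Enpp6* had r = 0.90 (adjusted permutation p = 0.0114) and rho = 0.69 (adjusted permutation p = 0.104), *Gpr17* and *Lhfpl3* had r = 0.88 (adjusted permutation p = 0.0114) and rho = 0.83 (adjusted permutation p = 0.0279), and *Lhfpl3* and *Enpp6* had r = 0.84 and rho = 0.76 (adjusted permutation p = 0.0155 and 0.0469). *Sox10* and *Enpp6* had r = 0.76 (adjusted permutation p = 0.0238), but their rho of 0.58 did not pass (adjusted permutation p = 0.208). *Olig1* was the one *Olig* gene among the 5. The number of pairs that passed fell to 3 without G-Smo tumor 4, to 4 without M-Smo tumor 1 and to 5 without M-Smo tumor 3.

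*Olig1* and *Sox10* had r = 0.82 (permutation p = 0.00029, adjusted 0.0114) and rho = 0.91 (permutation p = 7e-05, adjusted 0.00315). The relation was seen within each genotype, with r = 0.91 in *G-Smo* tumors and r = 0.90 in *M-Smo* tumors, and r was 0.85 without the 2 tumors farthest from the median *Olig1* deviation. *Olig1* also varied with *Lhfpl3* (r = 0.84, adjusted permutation p = 0.0126, 0.80 without the 2 farthest tumors) and with *Gpr17* (r = 0.80, adjusted permutation p = 0.0184, 0.62 without them).

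*Olig2* and *Sox10* had r = 0.51 (permutation p = 0.114, adjusted 0.27) and rho = 0.58 (permutation p = 0.0746, adjusted 0.24), with r = 0.50 in *G-Smo* tumors, r = 0.54 in *M-Smo* tumors and 0.19 without the 2 farthest tumors. The highest r of *Olig2* with any of the other 9 genes was 0.66, with *Cspg4* (adjusted permutation p = 0.14). *Olig1* and *Olig2*, whose genes lie side by side, had r = 0.34 (adjusted permutation p = 0.438), and *Olig2* and *Olig3* had r = 0.12. Whether the r of *Olig1* with *Sox10* differs from that of *Olig2* was not tested.

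As a description among 23520 other probe sets with 1 symbol, ordered by r with *Sox10*, *Lhfpl3* stood at 53, *Olig1* at 69, *Enpp6* at 209 and *Gpr17* at 358, while *Olig2* stood at 2007, *Olig3* at 2100 and *Cspg4* at 4683. *Pdgfra* (r = -0.18) and *Ptprz1* (r = -0.49) had negative values with *Sox10* and stood at 15787 and 21447. *Ptprz1* had a negative r with 8 of the other 9 genes, with *Pdgfra* as the exception. Its rho with *Gpr17* was -0.76 (adjusted permutation p = 0.0469) and its r with *Gpr17* was -0.65 (adjusted permutation p = 0.127).

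**Figure D3:**
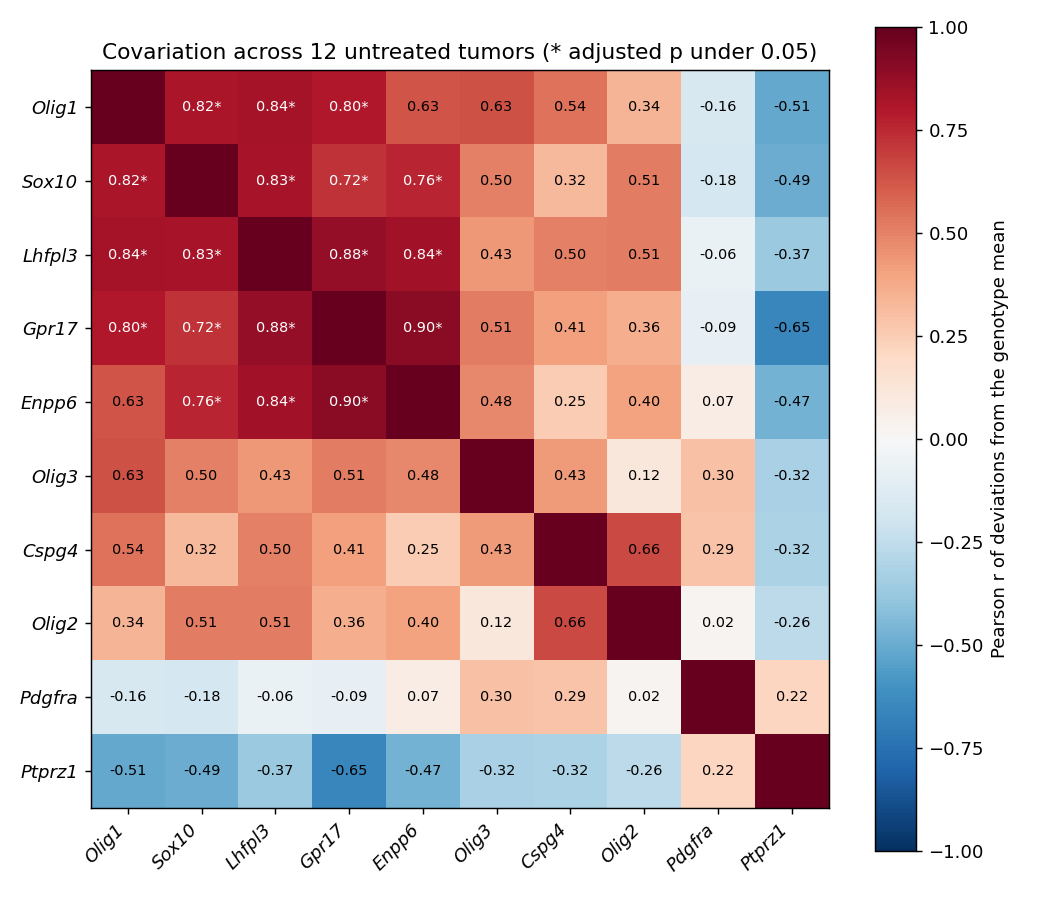
Pearson's r between the deviations of 2 genes from their genotype means over 12 untreated tumors (color scale from -1 to 1), with the value in each square and an asterisk where the adjusted permutation p was under 0.05; the genes are ordered to place those that varied together side by side. The 9 marked pairs lie among *Olig1*, *Sox10*, *Lhfpl3*, *Gpr17* and *Enpp6*, and *Olig2*, *Pdgfra* and *Ptprz1* are in none of them.

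**Figure D4:**
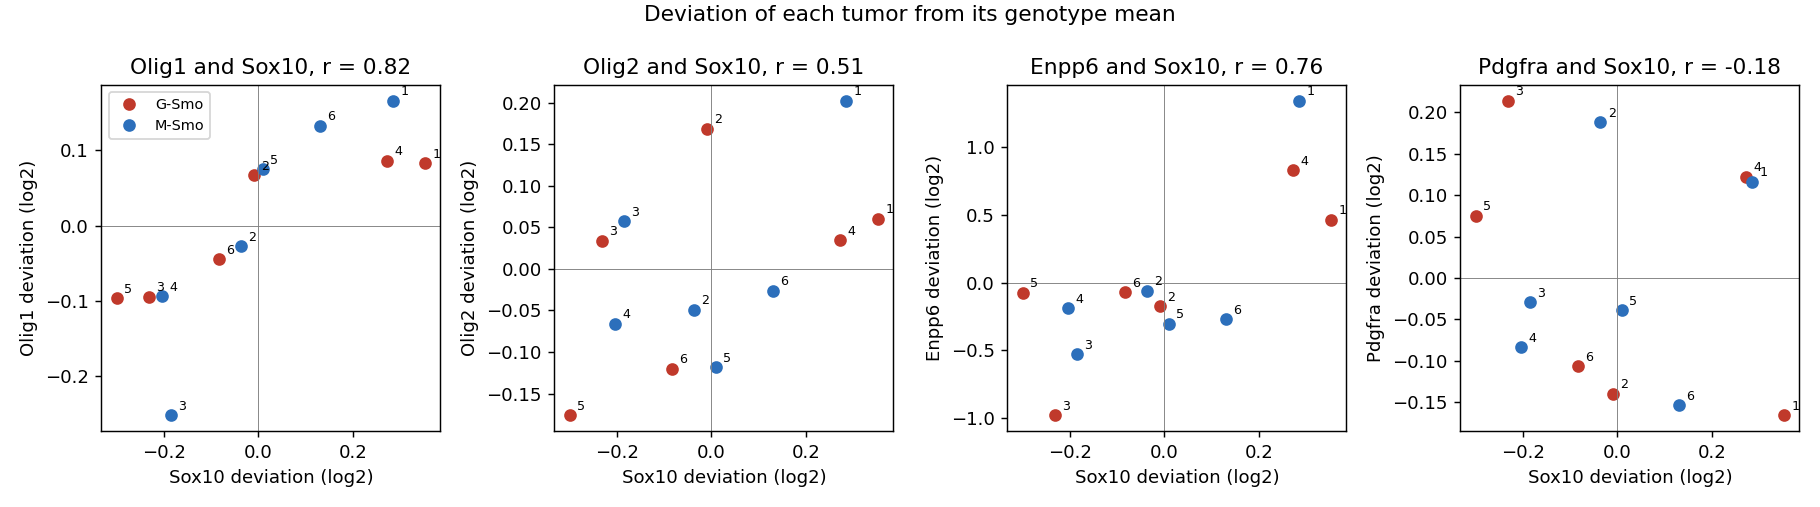
Deviation of each tumor from its genotype mean (log2) for *Sox10* (x axis) against *Olig1*, *Olig2*, *Enpp6* and *Pdgfra* (y axes), with 6 *G-Smo* tumors in red and 6 *M-Smo* tumors in blue, numbered by replicate. *Olig1* follows *Sox10* (r = 0.82) in both genotypes, and r was 0.51 for *Olig2*, 0.76 for *Enpp6* and -0.18 for *Pdgfra*.

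The genes whose deviations were most like those of *Sox10* over the 12 tumors were *Atp6v0e2* (r = 0.94), *Nepn* (0.93), *Naxe* (0.92), *Ndufa4* (0.90) and *Uqcrc1* (0.90), and those most like *Olig2* were *Chst2* (r = 0.93), *Shroom2* (0.90), *Taf1b* (0.88), *Slc35f1* (0.87) and *Hip1r* (0.87). These are the highest of 23520 values each and carry no test. Of the 10, *Slc35f1* also differed between the genotypes (-0.40, adjusted p = 0.0153 by limma).

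Promoters of 7 of the 10 genes were found in RefSeq (GRCm38.p6), from 250 bases before to 50 after the start. Those of *Olig2*, *Lhfpl3* and *Enpp6* are shown. The *Olig2* values of the genotypes did not overlap, though they almost met, and the r of *Lhfpl3* and of *Enpp6* with *Sox10* passed. The rho of *Enpp6* with *Sox10* did not. Capitals mark the E-box CAGCTG, a form of the site that OLIG factors bind as basic helix-loop-helix proteins, which reads the same on both strands. The *Olig2* window is chr16:91225300-91225599 (+ strand), that of *Lhfpl3* is chr5:22745804-22746103 (+ strand) and that of *Enpp6* is chr8:46986637-46986936 (+ strand).
Olig2: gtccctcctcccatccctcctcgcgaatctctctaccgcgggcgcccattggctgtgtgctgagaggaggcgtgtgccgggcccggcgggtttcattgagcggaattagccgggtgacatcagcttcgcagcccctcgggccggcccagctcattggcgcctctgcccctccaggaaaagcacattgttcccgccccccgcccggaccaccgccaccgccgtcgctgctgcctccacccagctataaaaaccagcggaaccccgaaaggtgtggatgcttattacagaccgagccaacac
Lhfpl3: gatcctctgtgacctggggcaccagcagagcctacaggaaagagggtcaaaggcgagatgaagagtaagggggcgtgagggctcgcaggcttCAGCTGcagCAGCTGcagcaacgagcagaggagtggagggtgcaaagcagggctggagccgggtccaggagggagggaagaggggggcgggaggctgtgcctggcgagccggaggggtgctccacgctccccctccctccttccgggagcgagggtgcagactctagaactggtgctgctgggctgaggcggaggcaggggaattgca
Enpp6: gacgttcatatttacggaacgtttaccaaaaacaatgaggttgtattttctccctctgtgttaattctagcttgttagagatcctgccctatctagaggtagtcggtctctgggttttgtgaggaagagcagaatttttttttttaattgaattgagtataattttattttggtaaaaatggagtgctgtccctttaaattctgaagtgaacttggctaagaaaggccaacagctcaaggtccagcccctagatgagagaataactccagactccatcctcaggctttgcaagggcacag
*Lhfpl3* held CAGCTG at -158 and -149 from the start, without overlap, and was 1 of 7 promoters with a match, where 16.3% of 32851 RefSeq promoters of the same length hold one. The letters CATATG, another E-box, and ACAAAG, a form of the SOX-type site, were both searched on either strand. They were in 0 of the 7 and in 3.91% and 18.7% of all promoters. Other forms of the SOX-type site were not searched, so these promoters may hold them.

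Other precursor genes were counted as a list. This list and those below were chosen with earlier results of these data known, so that their counts are a description and not independent support. Of 13 measured, 0 passed limma's test in either direction, 5 had an unadjusted p under 0.05, all lower in *G-Smo* tumors, and the median difference was -0.13. For the counts of this and the following lists, limma called 2.56% of all probe sets. At an unadjusted p under 0.05 it gave 18.9% of all probe sets, and 8.65% with the lower value in *G-Smo* tumors. The methods' test called 2 of them, *Bcan* (-0.20) and *Vcan* (-0.23), proteoglycans of the brain matrix that are named because of that count; limma's adjusted p was 0.0678 and 0.0565. With quantile normalization, with dim probe sets removed or with only probe sets of 1 symbol, limma called 3 of the 13. All 3 were lower in *G-Smo* tumors. It called 1 with median centring, also lower, and 1 without G-Smo tumor 2 or 4. Among the alternative settings that kept every tumor, the count rose above 0 in 8 and stayed at 0 in 2. *Sox8*, a relative of *Sox10*, averaged 9.11 ± 0.23 in *G-Smo* tumors and 9.10 ± 0.13 in *M-Smo* tumors, and *C1ql1*, a secreted precursor protein, averaged 11.20 ± 0.18 in *G-Smo* tumors and 11.38 ± 0.11 in *M-Smo* tumors (adjusted p = 0.28 by limma).

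Among genes of the committed stage, 3 of 10 passed limma's test as lower in *G-Smo* tumors and 0 as higher. At an unadjusted p under 0.05 limma gave 5 lower and 1 higher. *Rras2*, a small GTPase, averaged 7.92 ± 0.05 in *G-Smo* tumors and 8.33 ± 0.09 in *M-Smo* tumors, a difference of -0.41 (adjusted p = 0.00346 by limma). *Kif19a*, a kinesin, differed by -0.44 (adjusted p = 0.0153), and *Bmp4*, a secreted signal made by committed precursors and by other cells, by -0.94 (adjusted p = 0.0241). *Bcas1*, a marker of cells about to make myelin, differed by -0.11 (adjusted p = 0.531). *Bmp4* was not called without G-Smo tumor 3, 5 or 6 or M-Smo tumor 6, which left 2 of 10.

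Of the partners and regulators of the OLIG factors, 2 of 17 passed limma's test as lower in *G-Smo* tumors and 0 as higher. At an unadjusted p under 0.05 limma gave 5 lower and 1 higher. *Nkx6-2*, a homeodomain factor of the oligodendrocyte lineage, averaged 6.25 ± 0.09 in *G-Smo* tumors and 6.73 ± 0.22 in *M-Smo* tumors, a difference of -0.47 (adjusted p = 0.0244 by limma). *Id4*, which binds basic helix-loop-helix proteins without binding DNA, averaged 7.47 ± 0.23 in *G-Smo* tumors and 7.98 ± 0.17 in *M-Smo* tumors, a difference of -0.50 (adjusted p = 0.0345 by limma). The E proteins *Tcf3* and *Tcf4*, with which OLIG factors pair, differed by 0.17 (adjusted p = 0.147) and 0.01 (adjusted p = 0.925). The methods' test called 1 of 17, without *Id4* (adjusted p = 0.0523), and with a sex score in the model the count was 1, without *Nkx6-2* (adjusted p = 0.0508). The count was 0 without G-Smo tumor 5 or 6, and 1 without G-Smo tumor 2 or 3 or M-Smo tumor 1, 3, 4 or 6. Among ligands and partners of the PDGF receptors and PTPRZ1, 0 of 9 passed, with 6 at an unadjusted p under 0.05, all lower in *G-Smo* tumors, and 1 by the methods' test, *Ptn*, a ligand of PTPRZ1 (-0.16, limma's adjusted p = 0.0981), named after its value was seen. *Pdgfa*, the ligand of the precursors' receptor, differed by -0.23 (adjusted p = 0.105) and *Pdgfb* by -0.25 (adjusted p = 0.0791). With quantile normalization or only probe sets of 1 symbol 2 of the 9 were called, and with dim probe sets removed 3, all lower in *G-Smo* tumors and with *Pdgfb* among them (adjusted p = 0.0449, 0.0496 and 0.0408). Without G-Smo tumor 4 the count was 1.

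Of 9 tumor stem cell markers, 0 passed in either direction, 3 had an unadjusted p under 0.05, 1 of them higher in *G-Smo* tumors, and the median difference was -0.02. That 1 was *Prom1*, a membrane glycoprotein of neural stem cells, named after its value was seen and the only marker here called by the methods' test. It averaged 8.91 ± 0.12 in *G-Smo* tumors and 8.66 ± 0.06 in *M-Smo* tumors without overlap, a difference of 0.25 (adjusted p = 0.0502 by limma). The others of the 3 were *Sox2* (-0.17, adjusted p = 0.238 by limma) and *Fabp7* (-0.11, adjusted p = 0.263 by limma). Both were lower in *G-Smo* tumors and were also named after their values were seen. Of the 9 differences 5 were below 0. With dim probe sets removed or only probe sets of 1 symbol, limma called 1 of the 9, higher in *G-Smo* tumors, and likewise without G-Smo tumor 4. *Nes*, an intermediate filament of neural stem cells, averaged 8.77 ± 0.29 in *G-Smo* tumors and 8.57 ± 0.26 in *M-Smo* tumors (adjusted p = 0.487 by limma), and *Vim*, another filament gene, differed by -0.04.

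Markers of other cells were counted in the same tumors. All 15 measured genes of myelinating oligodendrocytes had values below 0, with a median of -0.79, and 4 passed as lower in *G-Smo* tumors. At an unadjusted p under 0.05 limma gave 12 of the 15, all lower, where 8.65% of all probe sets were lower at that level. The mean over the list was 6.60 to 7.44 in *G-Smo* tumors, against 7.45 to 8.98 in *M-Smo* tumors, with M-Smo tumor 1 at 8.98. The count was 0 by the methods' test, with a sex score in the model and without G-Smo tumor 2, 3, 5 or 6 or M-Smo tumor 4, 5 or 6, and it was 2 without G-Smo tumor 1. For fibroblasts and meninges 9 of 10 values were below 0, 9 were lower at an unadjusted p under 0.05, and 6 passed as lower. Among the 6 was *Slc6a13*, a transporter of meningeal cells, at -1.08 (adjusted p = 0.000377 by limma). The list means were 7.30 to 7.66 in *G-Smo* tumors, against 7.83 to 8.26 in *M-Smo* tumors. For astrocytes 9 of 10 values were below 0, 4 were lower at an unadjusted p under 0.05, and 4 passed as lower. The list means were 9.14 to 9.36 in *G-Smo* tumors, against 9.32 to 9.63 in *M-Smo* tumors. *Gfap* differed by -0.75 (limma's adjusted p = 0.0282, and 0.0812 with a sex score in the model). Without G-Smo tumor 2, 3 or 6 or M-Smo tumor 6 the count of astrocyte genes that passed was 2. For pericytes 7 of 8 values were below 0, 4 were lower at an unadjusted p under 0.05, and 1, *Anpep*, passed (-0.47, adjusted p = 0.0137 by limma). The list means were 7.96 to 8.17 in *G-Smo* tumors, against 8.17 to 8.30 in *M-Smo* tumors. No defining marker is at 0, since array intensities have no zero, and the part of these cells in the values of the 10 genes was not tested.

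The list means were also set against the 10 genes across tumors, as deviations from the genotype mean, in 50 relations that were added after the values had been seen. *Gpr17* varied with the myelin list (r = 0.91, adjusted permutation p = 0.006; rho = 0.85, adjusted permutation p = 0.031), with r = 0.94 in *G-Smo* tumors, r = 0.92 in *M-Smo* tumors and 0.81 without the 2 farthest tumors. *Ptprz1* had r = -0.76 with it (adjusted permutation p = 0.051) and rho = -0.82 (adjusted permutation p = 0.0465), with r = -0.73 in *G-Smo* tumors and -0.85 in *M-Smo* tumors, and -0.75 without the 2 farthest. *Enpp6* had r = 0.85 (adjusted permutation p = 0.051) and rho = 0.66 (adjusted permutation p = 0.347), and r was 0.66 without the 2 farthest tumors.

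**Figure D5:**
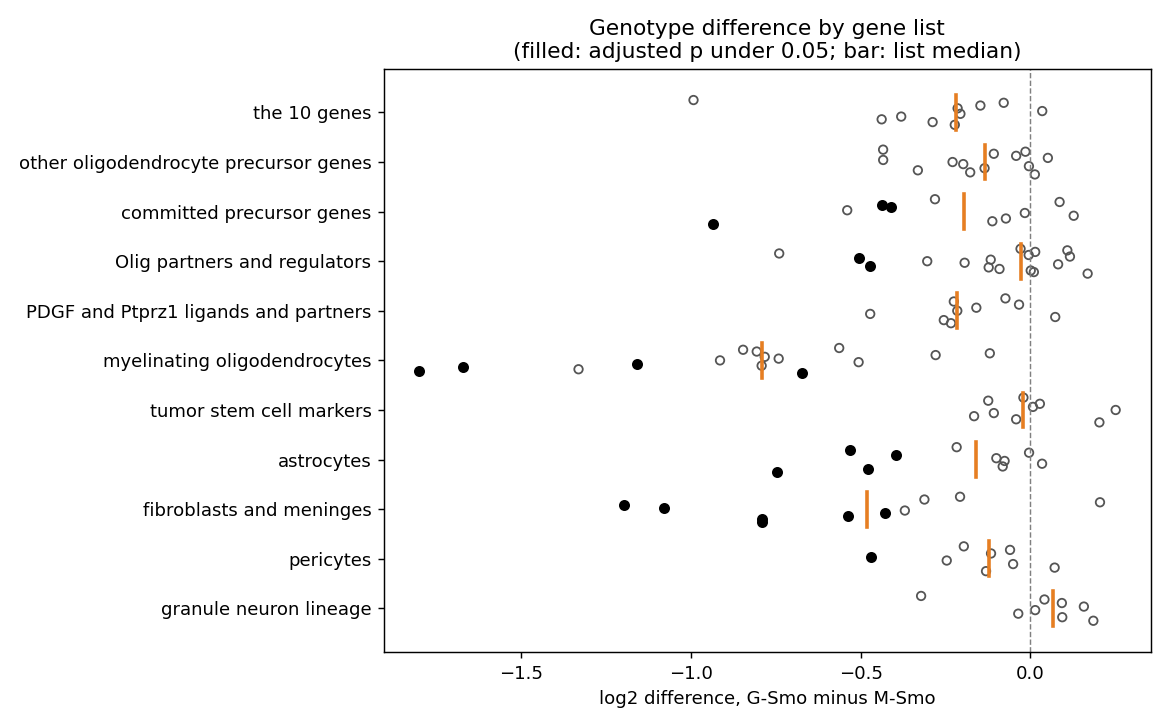
Log2 difference (x axis, *G-Smo* minus *M-Smo*) of every measured gene of each list (rows), with filled points where limma's adjusted p was under 0.05, open points otherwise and an orange bar at the list median. The 10 genes have a median of -0.22 and no filled point, and the myelin list, with a median of -0.79, has 4.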

How the data were processed

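RNA of each tumor was hybridized to an Affymetrix mouse gene array, and the 12 untreated arrays were used. For each probe set the authors deposited a log2 intensity, made by robust multi-array averaging (RMA), a background correction, quantile normalization and probe summary; the submitters' processing notes also name Partek. Probe sets were named through the platform annotation. *Gpr17* also lies on a probe set shared with *Lims2*, which was not used for *Gpr17*. That probe set differed by -0.35 (95% interval -0.58 to -0.12, adjusted p = 0.103 by limma). Genotypes were compared with limma 3.58.1 in R 4.3.3 (lmFit, eBayes, Benjamini-Hochberg over 41345 probe sets, threshold 0.05), with neither filter nor covariate. The methods' test is the same comparison without moderation. Single values were compared with exact permutation tests and correlations with 100000 permutations within genotype (20000 in the alternatives). Intervals are at 95%. Every array is a separate tumor; arrays have no count depth, and their number limits the precision. All 10 genes are named, and of each list the first 2 measured genes and up to 4 that passed could be. The genes and lists were chosen with earlier results of these data known. Some listed genes were not analysed here. Steps were tested on simulated data, and figures were drawn with matplotlib 3.10.9.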

Additional observations from a re-analysis of the deposited data

Results flagged for a closer look

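In 86 groups of 6 tumors examined, 7 held a tumor far from the other 5 by Dixon's criterion, which chance meets in about 1 of 20 groups. Among the 10 genes this was *Enpp6* in M-Smo tumor 1, at 8.90 where the others lay between 7.03 and 7.50. The same tumor stood apart for *Cldn11* (10.68, others 9.19 to 9.68) and *Pdgfb* (8.16, others 7.76 to 7.82). In M-Smo tumor 6 *Aldh1l1* was 9.98 (others 9.69 to 9.79). In *G-Smo* tumors *Bcas1* was 9.01 in tumor 4 (others 8.85 to 8.88), *Lum* was 5.47 in tumor 6 (others 6.06 to 6.33) and *Rgs5* was 11.18 in tumor 3 (others 11.06 to 11.09).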

How the results depend on the processing

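Of the 10 genes, 1 was called with quantile normalization, with array weights and with a sex score (*Xist* minus the Y-linked genes) as covariate (*Olig3* each time), and 2 with a filter at the 40th percentile, with only probe sets of 1 symbol and with limma's trend and robust options (*Olig2* and *Olig3*). Leaving out 1 tumor gave 0 to 1. Of all probe sets, 1881 were called with the filter, 420 with the sex score, and 367 to 942 with 1 tumor left out, against 1057. The count fell by over 1.5 times without G-Smo tumor 2 (609), 3 (503), 5 (367) or 6 (452) and without M-Smo tumor 5 (676) or 6 (596). *Olig1* minus *Sox10* differed by 0.20 with quantile normalization (exact permutation p = 0.039) and by 0.12 to 0.21 with 1 tumor left out; *Olig2* minus *Sox10* by 0.04 to 0.15. The difference of *Cspg4* became -0.0122 with quantile normalization and -0.0862 with the sex score, and ran from -0.0028 (without G-Smo tumor 2) to 0.0821 with 1 tumor left out. That of *Sox8* became -0.0169 with quantile normalization, -0.0137 with array weights and -0.0783 with the sex score, and that of *Tcf4* -0.0027 with median centring. The r of *Sox10* and *Cspg4* became -0.0184 with the sex score. Pairs that passed numbered 3 to 9 with 1 tumor left out, 7 by rho and 6 with the sex score. Same-numbered tumors did not deviate together over all probe sets (r from -0.14 to 0.11 over 6 pairs, 1 of 6 tumors best with its own number). Whether tumors of the same number shared a batch was not tested. With the replicate block 113 probe sets and 0 of the 10 genes were called, the committed, partner, myelin, astrocyte and pericyte lists had 0 called genes, and the exact permutation p of *Olig1* minus *Sox10* was 0.0938. With the sex score 0 myelin genes were called. With limma's trend and robust options 2 other precursor genes, 2 PDGF and PTPRZ1 partners and 1 stem cell marker were called, against 0 each. The causes were not tested. With 6 tumors a group, the intervals limit what could be seen.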
